A study of Homo sapiens with 6 samples.

Results

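The 10 genes described here encode the enzymes that make serine from a glycolytic intermediate and pass its carbon to folate, and they were picked by name from the 62700 genes in the count tables. All 10 were found, and all 10 were among the 15685 genes with enough counts to be tested. Their transcripts were counted in RNA-seq libraries of OVCAR8, an established line of human ovarian carcinoma cells with a wild-type genotype by its labels. The cells were starved of serum overnight and then received leptin, a hormone made by fat cells, at 100 ng/ml for 24 h (3 libraries) or PBS, here called control (3 libraries). The comparison was made to look for genes through which leptin may maintain stemness. Line, growth medium and starvation were shared by both groups. Whether replicates came from separate cultures is not given in the labels, and p-values therefore cover the library-to-library spread alone, which can be technical.

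Serine is built in the cytosol from 3-phosphoglycerate in 3 steps, catalysed by PHGDH, PSAT1 and PSPH. Serine hydroxymethyltransferase then moves a one-carbon unit from serine to tetrahydrofolate and leaves glycine. This reaction exists in parallel in the cytosol (SHMT1) and in mitochondria (SHMT2), and so do the folate steps that follow it. MTHFD1 carries out the dehydrogenase, cyclohydrolase and synthetase steps in the cytosol, while MTHFD2 or MTHFD2L and MTHFD1L do so in mitochondria. ALDH1L2 is the mitochondrial formyltetrahydrofolate dehydrogenase, and its cytosolic counterpart ALDH1L1 is not among the enzymes described. In many proliferating cells the mitochondrial arm exports formate, which the cytosolic enzymes use for purine and thymidylate synthesis. The transcription factor ATF4 is known to raise transcription of several of these genes when amino acids are short.

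RefSeq promoter sequences (GRCh38.p14) were matched by symbol for 7 of the 10 genes. SHMT2, PSPH and ALDH1L2 had no entry, so their promoters were not searched. The windows printed here cover the 250 bases before the start of MTHFD1, the cytosolic enzyme gene that was lower with leptin, and of PHGDH and PSAT1, the first genes of the pathway. Each was searched on both strands for TGATGNAA, a core of the composite element that ATF4 and C/EBP factors bind, and for CACGTG, the palindromic E-box bound by MYC and other factors, and capitals mark a match. The MTHFD1 window lies at chr14:64388103-64388352 (plus strand), the PHGDH window at chr1:119711684-119711933 (plus strand) and the PSAT1 window at chr9:78296875-78297124 (plus strand). The starts are those of the RefSeq promoter set. The MTHFD1 and PHGDH windows lie inside the gene spans used for counting, which begin at 64388031 and 119648411.
MTHFD1: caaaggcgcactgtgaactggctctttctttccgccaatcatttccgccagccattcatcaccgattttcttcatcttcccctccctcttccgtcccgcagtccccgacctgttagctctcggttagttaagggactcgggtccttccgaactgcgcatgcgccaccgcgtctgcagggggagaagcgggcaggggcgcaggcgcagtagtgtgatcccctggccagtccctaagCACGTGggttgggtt
PHGDH: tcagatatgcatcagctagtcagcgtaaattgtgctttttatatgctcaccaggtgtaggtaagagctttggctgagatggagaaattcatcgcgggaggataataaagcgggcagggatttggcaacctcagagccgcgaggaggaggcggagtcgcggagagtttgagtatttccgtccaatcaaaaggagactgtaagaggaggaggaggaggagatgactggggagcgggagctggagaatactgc
PSAT1: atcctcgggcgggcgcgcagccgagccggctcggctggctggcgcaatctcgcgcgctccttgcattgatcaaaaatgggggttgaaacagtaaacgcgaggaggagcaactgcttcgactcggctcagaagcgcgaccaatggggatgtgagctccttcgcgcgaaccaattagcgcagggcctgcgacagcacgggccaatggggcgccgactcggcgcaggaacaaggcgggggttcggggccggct
The MTHFD1 window holds 1 E-box, which begins 15 bases before the start, and the PHGDH and PSAT1 windows hold neither motif. Of the 35116 promoter windows of this length in the table, 6.34% hold CACGTG and 3.14% hold TGATGNAA. MTHFD1L was the only other of the 7 genes with a match: 2 of its 4 windows hold both motifs. These windows overlap and hold the same sites. A match describes letters and shows no binding.

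Total counts lay between 15609425 and 18577775 per library. The labelled cell type was checked against its markers: the Müllerian transcription factor gene PAX8 stood between 354 and 370 CPM in all 6 libraries (counts-per-million, counts scaled to library size with TMM factors), and KRT8 at or above 2005 CPM, while MUC16, MSLN and CDH1 stayed at or below 0.891 CPM. EPCAM and WT1 were low as well, at 1.96 to 6.11 CPM with leptin and 2.24 to 4.72 CPM in controls. Of the 8 tested genes of this 10-gene list, KRT19 alone passed the test, as lower, at 38.0 to 39.8 CPM with leptin and 93.7 to 113 CPM in controls (edgeR adjusted p = 0.000139). Of 10 immune cell markers, 5 (PTPRC, CD3D, CD3E, MS4A1 and ITGAM) had no count, and the summed level of this list was at most 0.749 CPM with leptin and 0.373 CPM in controls. Summed endothelial markers reached 4.32 CPM with leptin and 5.40 CPM in controls, and summed adipocyte markers 2.82 CPM with leptin and 1.55 CPM in controls, with LPL, CIDEA and LEP at 0. The fibroblast list summed to 360 to 523 CPM with leptin and 469 to 664 CPM in controls, most of it COL1A1, and of its 8 tested genes POSTN alone passed the test, as lower. Leptin replicate 1 stood apart: on the first principal component of log2 CPM, with 49.6% of the variance, it lay at -2.15, against 46.3 and 39.6 for leptin replicates 2 and 3 and -31.0 to -23.6 for the controls. The counts come from bulk RNA, so fewer cells with a transcript and less transcript per cell cannot be told apart.

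Of the 10 enzymes, 2 passed the test, in opposite directions and in different compartments. The mitochondrial gene SHMT2 was higher with leptin and the cytosolic gene MTHFD1 was lower, each by about the same amount on the log2 scale. The other 8 enzymes did not pass. Over all tested genes, 9.81% passed edgeR's quasi-likelihood test at a Benjamini-Hochberg adjusted p under 0.05, 5.71% as higher and 4.09% as lower, and the 2 of 10 here are read against that background, with nothing called particular to these enzymes. An unadjusted edgeR p under 0.05 was found for 4 of the 10, against 27.6% of all tested genes. The median log2 fold change of the 10 enzymes was 0.21, with 6 positive and 4 negative, against a median of 0.0057 and 50.8% positive over all tested genes.

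SHMT2 (ENSG00000182199.11, chr12:57229573-57234935, plus strand, hg38) encodes the mitochondrial serine hydroxymethyltransferase. It stood at 425, 588 and 601 CPM in leptin replicates 1, 2 and 3, against 367, 378 and 366 CPM in control replicates 1, 2 and 3. Every leptin library lay above every control, with replicate 1 closest to them, and the controls were tightly grouped. The log2 fold change was 0.54 ± 0.14 (SE), a 1.45-fold rise (edgeR adjusted p = 0.0372, n = 3 each). The gene has a GC-rich transcript, with 57.0% GC against a median of 48.4% over tested genes, and with each library's trend over GC content removed the log2 fold change was 0.43 and no longer passed (edgeR adjusted p = 0.0956). It also did not pass without control replicate 1, 2 or 3 in turn (edgeR adjusted p = 0.173, 0.128 and 0.170) or without leptin replicate 2 or 3 in turn (0.0832 and 0.132). The fold change stayed between 0.45 and 0.67 over the 6 leave-outs. With the GC trend removed, PSAT1 and MTHFD2 had log2 fold changes of 0.56 and 0.43 and did not pass (edgeR adjusted p = 0.0675 and 0.0853).

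MTHFD1 (ENSG00000100714.18, chr14:64388031-64463457, plus strand) encodes the cytosolic protein that carries 3 folate activities in 1 chain, dehydrogenase, cyclohydrolase and formyltetrahydrofolate synthetase. It stood at 58.9, 55.7 and 44.7 CPM in leptin replicates 1, 2 and 3, against 76.2, 77.5 and 76.5 CPM in control replicates 1, 2 and 3. Here too the groups did not overlap, and leptin replicate 1 sat with the other leptin libraries well below the controls. The log2 fold change was -0.53 ± 0.12 (SE), or 0.691 times the control level (edgeR adjusted p = 0.0227, n = 3 each). With the GC trend removed it was -0.46 and still passed (edgeR adjusted p = 0.0388). It did not pass without control replicate 1, 2 or 3 in turn (edgeR adjusted p = 0.119, 0.0968 and 0.113) or without leptin replicate 3 (0.0723), and the fold change lay between -0.62 and -0.43 over the 6 leave-outs. Exons of other genes cover 11.1% of the merged exons of MTHFD1, and read pairs over both genes were not counted.

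**Figure D1:**
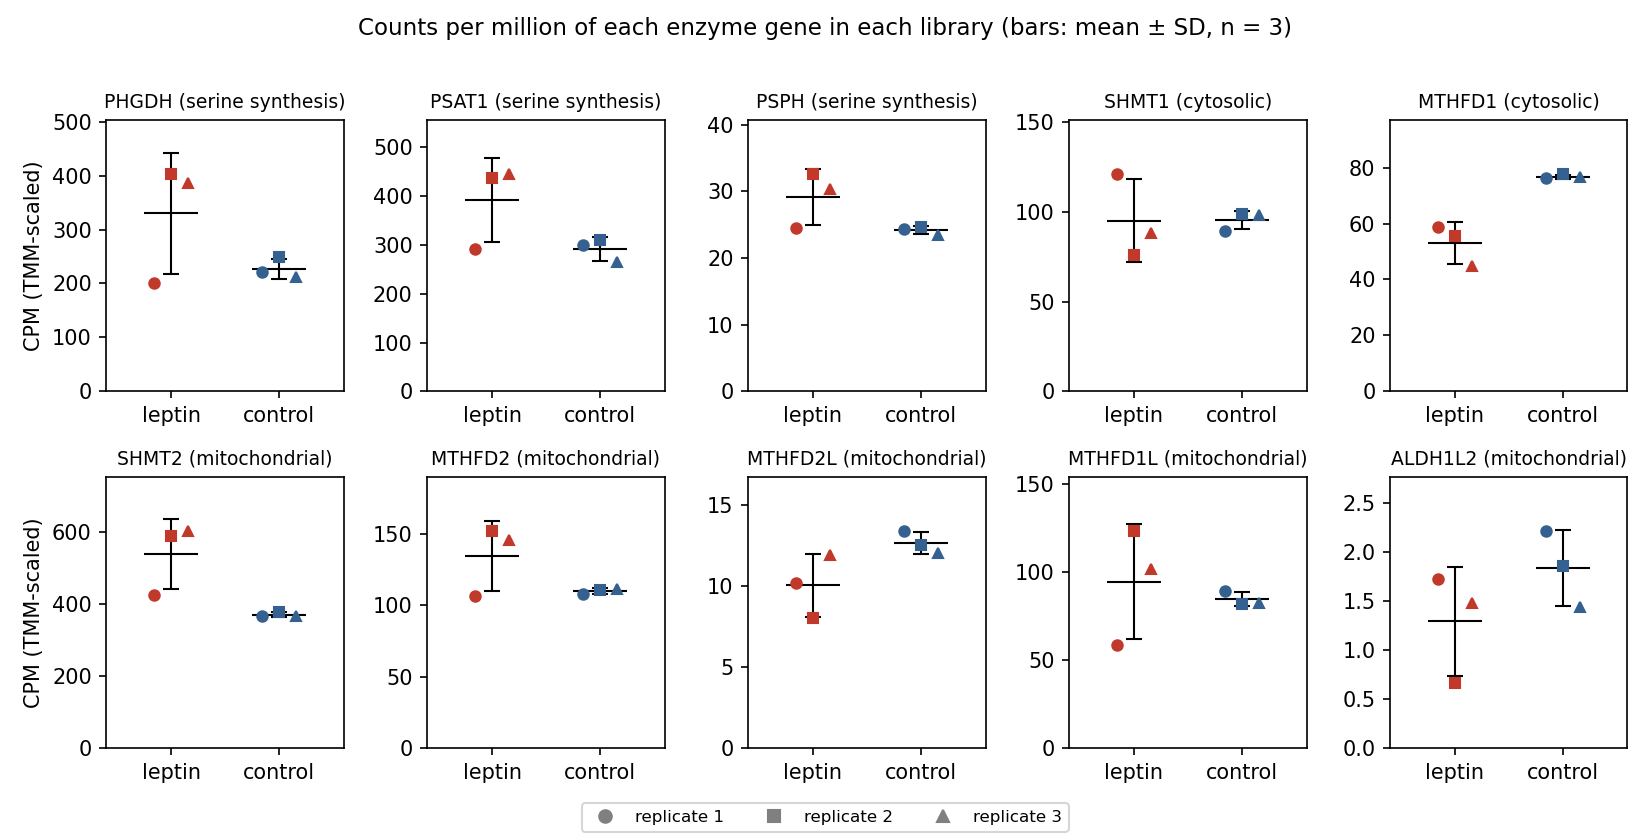
TMM-scaled CPM (linear axes from 0) of the 10 enzyme genes in each library, with leptin left of control, marker shape giving the replicate number and bars the mean ± SD of 3 libraries. SHMT2 lies between 425 and 601 CPM in leptin libraries and between 366 and 378 CPM in controls, MTHFD1 lies between 44.7 and 58.9 CPM in leptin libraries and between 76.2 and 77.5 CPM in controls, and for PHGDH, PSAT1, PSPH and MTHFD2 leptin replicate 1 sits within or below the control range while replicates 2 and 3 sit above them.

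The 3 genes of serine synthesis shared 1 pattern over the libraries: leptin replicates 2 and 3 were above every control, and leptin replicate 1 was not. None of the 3 passed edgeR, DESeq2 or limma-voom, and 2 of them had an unadjusted edgeR p under 0.05. PHGDH (chr1:119648411-119744218, plus strand), the dehydrogenase of the first step, stood at 202, 402 and 386 CPM in leptin replicates 1, 2 and 3, against 222, 248 and 212 CPM in control replicates 1, 2 and 3. Leptin replicate 1 was the lowest of the 6 libraries. The log2 fold change of 0.54 ± 0.22 (SE) was as large as that of SHMT2, with a wider error (edgeR adjusted p = 0.140).

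PSAT1 (chr9:78297125-78330093, plus strand), the aminotransferase of the second step, stood at 291, 437 and 443 CPM in leptin replicates 1, 2 and 3, against 299, 310 and 264 CPM in control replicates 1, 2 and 3 (log2 fold change 0.42 ± 0.16 (SE), edgeR adjusted p = 0.114). Leptin replicate 1 fell inside the control range. PSPH (chr7:56011051-56051604, minus strand), the phosphatase of the last step, stood at 24.4, 32.5 and 30.4 CPM in leptin replicates 1, 2 and 3, against 24.4, 24.7 and 23.5 CPM in control replicates 1, 2 and 3 (log2 fold change 0.27 ± 0.13 (SE), edgeR adjusted p = 0.221). Its leptin replicate 1 was again inside the control range. Without leptin replicate 1 the fold changes of PHGDH, PSAT1 and PSPH were 0.78, 0.59 and 0.37 on the log2 scale, and all 3 passed (edgeR adjusted p = 1.97e-05, 0.000279 and 0.0234). That leave-out called 4761 genes, against 1538 with all 6 libraries, so far more genes passed there than in the main fit.

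In the cytosolic arm, SHMT1 (chr17:18327860-18363563, minus strand), the cytosolic counterpart of SHMT2, had nearly the same mean in both groups. It stood at 121, 76.0 and 88.1 CPM in leptin replicates 1, 2 and 3, against 89.6, 99.0 and 98.1 CPM in control replicates 1, 2 and 3. Leptin replicate 1 lay above every control and leptin replicates 2 and 3 below every control, so the log2 fold change of -0.0072 ± 0.16 (SE) averages opposite deviations (edgeR adjusted p = 0.985).

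Among the mitochondrial enzymes after SHMT2, MTHFD2 (chr2:74186172-74217565, plus strand), the methylenetetrahydrofolate dehydrogenase and cyclohydrolase known for its high level in embryonic and tumour cells, followed the serine synthesis genes. It stood at 107, 152 and 146 CPM in leptin replicates 1, 2 and 3, against 108, 111 and 112 CPM in control replicates 1, 2 and 3. Leptin replicate 1 lay just below the controls and the other leptin libraries above them (log2 fold change 0.29 ± 0.13 (SE), edgeR adjusted p = 0.188). Without leptin replicate 1 the log2 fold change was 0.43 and passed (edgeR adjusted p = 0.00185). That leave-out called 4761 genes, against 1538 with all 6 libraries.

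MTHFD2L (chr4:74114174-74303099, plus strand) encodes a second mitochondrial enzyme of the same step and had a low count in every library. It stood at 10.2, 8.02 and 11.9 CPM in leptin replicates 1, 2 and 3, against 13.4, 12.5 and 12.1 CPM in control replicates 1, 2 and 3. The groups did not overlap, by a narrow margin, and with a log2 difference of -0.33 ± 0.17 (SE) the gene was not called (edgeR adjusted p = 0.239). The difference was -0.20 without leptin replicate 2 and -0.17 with the GC trend removed. In sum, 3 of the 10 enzymes had groups that did not overlap, 1 above and 2 below the controls, where 32.2% of all tested genes did so, 16.0% above and 16.2% below.

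MTHFD1L (chr6:150865679-151101887, plus strand), the mitochondrial formyltetrahydrofolate synthetase that releases formate, mirrored SHMT1. It stood at 58.7, 123 and 102 CPM in leptin replicates 1, 2 and 3, against 89.4, 82.1 and 82.5 CPM in control replicates 1, 2 and 3. Leptin replicate 1 lay below every control and leptin replicates 2 and 3 above every control (log2 fold change 0.16 ± 0.21 (SE), edgeR adjusted p = 0.673). The fold change was 0.40 and passed without leptin replicate 1 (edgeR adjusted p = 0.00741), where 4761 genes were called, against 1538 with all 6 libraries. It was -0.079 without leptin replicate 2 (edgeR adjusted p = 0.853). ALDH1L2 (chr12:105019784-105107643, minus strand), the mitochondrial formyltetrahydrofolate dehydrogenase, was the scarcest of the 10, with 30, 10 and 25 counts in leptin replicates 1, 2 and 3, against 42, 30 and 24 counts in control replicates 1, 2 and 3. The groups overlapped, and at this depth its log2 fold change of -0.50 ± 0.40 (SE) was not distinguishable from 0 (edgeR adjusted p = 0.464). It was -0.77 without leptin replicate 1 and -0.20 without leptin replicate 2.

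**Figure D2:**
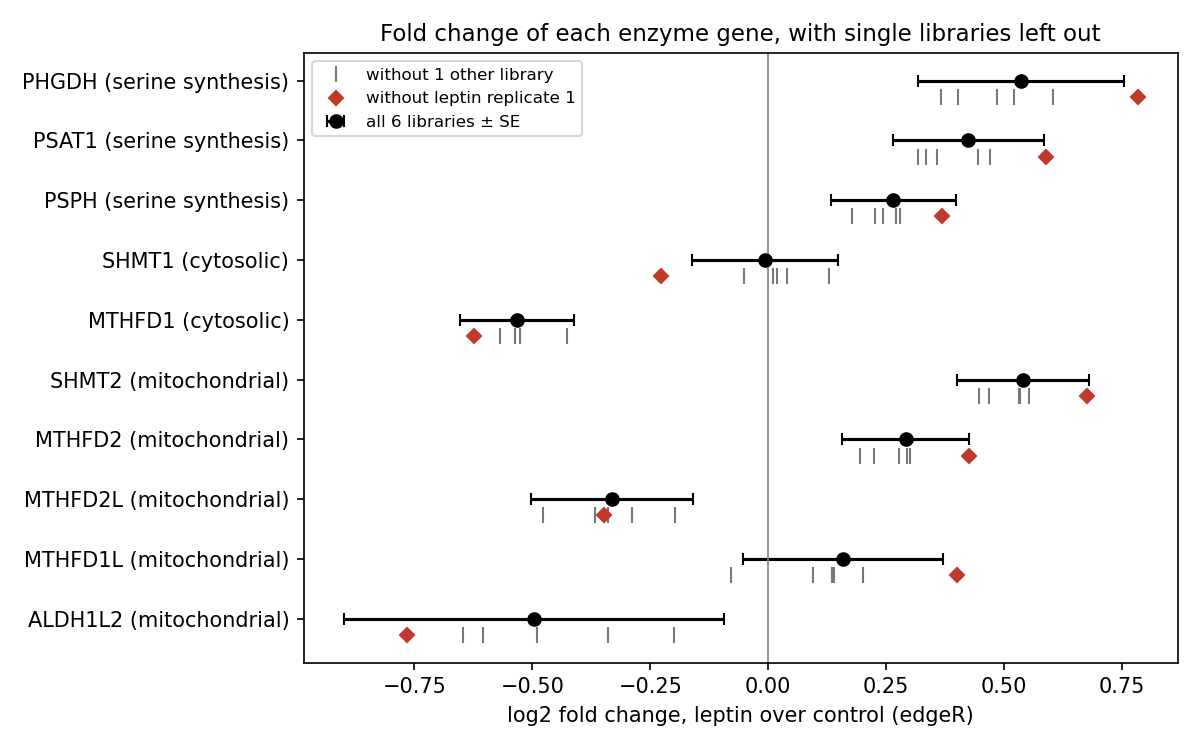
Log2 fold change of each enzyme gene, leptin over control, from edgeR's fit over all tested genes: black points with bars give the value ± SE from all 6 libraries, grey ticks the value without 1 other library and red diamonds the value without leptin replicate 1. SHMT2 stays between 0.45 and 0.67 and MTHFD1 between -0.62 and -0.43, while SHMT1 and MTHFD1L lie on both sides of 0 depending on which library is left out.

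Levels were compared between genes as TPM (counts per base of merged exon, scaled to the same total in every library). PSAT1 was the most abundant of the 10 with 700 TPM with leptin and 539 TPM in controls (means of 3), followed by SHMT2 with 464 TPM with leptin and 330 TPM in controls, and PHGDH with 142 TPM with leptin and 101 TPM in controls. MTHFD1L, SHMT1, MTHFD2 and PSPH came next, at 41.8 to 76.6 TPM with leptin and 35.9 to 70.8 TPM in controls. MTHFD1 stood at 12.2 TPM with leptin and 18.1 TPM in controls, MTHFD2L at 4.05 TPM with leptin and 5.28 TPM in controls, and ALDH1L2 at 0.539 TPM with leptin and 0.792 TPM in controls. In controls no gene's libraries overlapped those of its neighbour in this order. With leptin the ranges of PHGDH and MTHFD1L overlapped, as did those of MTHFD1L and SHMT1, of SHMT1 and MTHFD2, and of MTHFD2 and PSPH.

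The order depends on the length used. Merged exons span 17357 bases for MTHFD1 and 9187 for PHGDH, against 6814 and 2585 bases in their longest coding transcripts. Transcript lengths were a choice made after seeing the data. With them SHMT2 came before PSAT1, at 519 and 437 TPM with leptin and 370 and 337 TPM in controls. PHGDH came to 312 TPM with leptin and 223 TPM in controls, and MTHFD1 to 19.2 TPM with leptin and 28.5 TPM in controls. SHMT1 and MTHFD2 came before MTHFD1L, at 94.7, 74.1 and 64.3 TPM with leptin and 98.2, 62.6 and 59.5 TPM in controls. In controls MTHFD1 also came just before PSPH, which stood at 28.2 TPM.

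The arms were compared by summing TPM over their enzymes in each library, as a description without a test. The 5 mitochondrial genes together held 465, 678 and 632 TPM in leptin replicates 1, 2 and 3, against 444, 449 and 445 TPM in control replicates 1, 2 and 3. All leptin libraries lay above all controls, replicate 1 by little, and the mean was 1.33 times that of controls. SHMT2 alone made up 76.5% to 80.4% of this sum with leptin and 73.2% to 74.6% in controls. Without SHMT2, the remaining mitochondrial genes summed to 91.0, 159 and 133 TPM in leptin replicates 1, 2 and 3, against 119, 114 and 116 TPM in control replicates 1, 2 and 3, so leptin replicate 1 was then the lowest library.

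The cytosolic pair SHMT1 and MTHFD1 summed to 83.2, 56.9 and 57.7 TPM in leptin replicates 1, 2 and 3, against 69.8, 75.7 and 75.9 TPM in control replicates 1, 2 and 3. Leptin replicate 1 was the highest library and the other leptin libraries the lowest. The log2 ratio of the mitochondrial over the cytosolic sum was 2.48, 3.57 and 3.45 in leptin replicates 1, 2 and 3, against 2.67, 2.57 and 2.55 in control replicates 1, 2 and 3. Leptin replicate 1 had the lowest ratio of all, and the groups overlapped. The mean difference was 0.57, and it was 0.92 without leptin replicate 1 and 0.37 without leptin replicate 2. On CPM sums, not divided by length, leptin replicate 1 lay at 1.75, inside the control range of 1.72 to 1.81. The serine synthesis genes summed to 657, 1027 and 968 TPM in leptin replicates 1, 2 and 3, against 685, 719 and 625 TPM in control replicates 1, 2 and 3, with leptin replicate 1 inside the control range.

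Between counterparts, the log2 ratio of SHMT2 over SHMT1 per length was 2.43, 3.56 and 3.38 in leptin replicates 1, 2 and 3, against 2.64, 2.54 and 2.51 in control replicates 1, 2 and 3. In leptin replicate 1 both genes were above their controls and the ratio was the lowest of the 6. The mean difference of 0.56 became 0.90 without leptin replicate 1 and 0.34 without leptin replicate 2. The log2 ratio of MTHFD2 over MTHFD1 was 1.46, 2.05 and 2.31 in leptin replicates 1, 2 and 3, against 1.10, 1.12 and 1.15 in control replicates 1, 2 and 3. The groups did not overlap in this ratio, with a mean difference of 0.82. For the synthetase step, the log2 ratio of MTHFD1L over MTHFD1 was 1.82, 2.97 and 3.02 in leptin replicates 1, 2 and 3, against 2.06, 1.91 and 1.94 in control replicates 1, 2 and 3. Here the groups overlapped, with leptin replicate 1 the lowest of the 6 libraries. Removing length, or using transcript lengths, left each of these differences between single genes as it was, since a length cancels in a difference of log ratios.

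**Figure D3:**
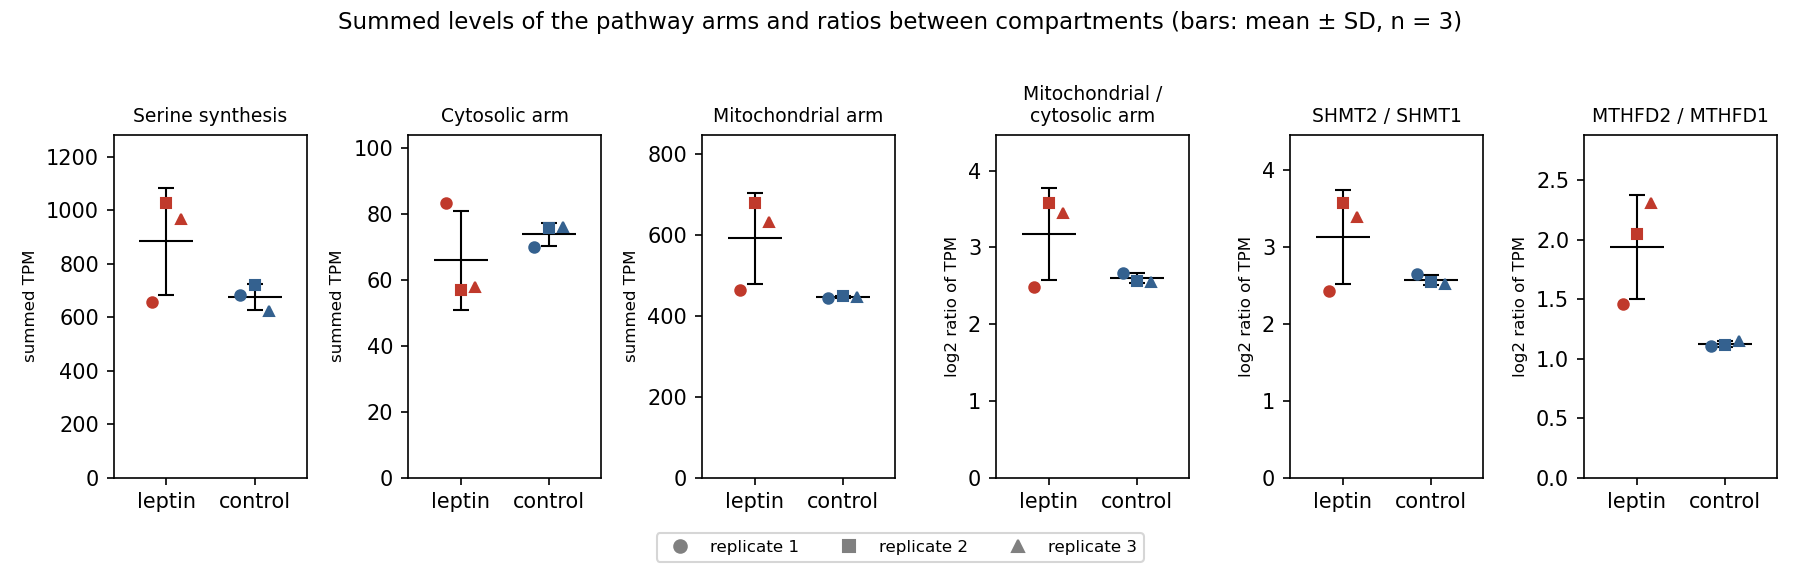
Summed TPM of the serine synthesis, cytosolic and mitochondrial genes and log2 ratios of TPM between compartments in each library, with leptin left of control, marker shape giving the replicate number and bars the mean ± SD of 3 libraries. Leptin replicates 2 and 3 lie at log2 ratios of 3.57 and 3.45 of mitochondrial over cytosolic sums and replicate 1 at 2.48, below the controls at 2.55 to 2.67, while for MTHFD2 over MTHFD1 all leptin libraries (1.46 to 2.31) lie above all controls (1.10 to 1.15).

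The neighbouring pathway genes were read from 7 lists. Of their 80 genes, 68 were tested, and 11 rose and 4 fell, or 22.1% of those tested against 9.81% of all genes. The lists were chosen with earlier results of these data known, so no excess is read from this share. None of these 15 calls held in all 6 leave-outs. Leaving out control replicate 1, 2 or 3 in turn, 0, 2 and 0 of the 15 passed edgeR, and leaving out leptin replicate 1, 2 or 3 in turn, 15, 8 and 2 passed. The highest leave-out adjusted p was between 0.0566 for TYMS and 0.191 for SLC1A4. With the GC trend removed 8 of the 15 passed. Over all tested genes, 5.71% passed as higher and 4.09% as lower, and 27.6% had an unadjusted edgeR p under 0.05. The counts of each list below stand against these shares, and no list is called particular.

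Of 12 tested other folate cycle enzymes and carriers, 2 rose and 2 fell, with a median log2 fold change of 0.17. TYMS, the thymidylate synthase, stood at 34.8, 22.9 and 29.6 CPM in leptin replicates 1, 2 and 3, against 52.7, 52.1 and 58.3 CPM in control replicates 1, 2 and 3 (log2 fold change -0.90 ± 0.15 (SE), edgeR adjusted p = 0.00700). TYMS lay below the controls in every leptin library, as MTHFD1 did. For TYMS, 47.9% of the merged exons overlap other genes, where read pairs were not counted.

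The 2 that rose were FOLR1, a cell-surface folate receptor, at 68.8 ± 8.13 CPM with leptin and 44.6 ± 7.79 CPM in controls (SD, n = 3 each, edgeR adjusted p = 0.0234), and FTCD, of histidine breakdown, at 10.7 ± 1.5 CPM with leptin and 5.71 ± 1.15 CPM in controls (edgeR adjusted p = 0.0214). FTCD did not pass with the GC trend removed (edgeR adjusted p = 0.151). ALDH1L1, the cytosolic counterpart of ALDH1L2, had too few counts to be tested, as had FOLR2 and SLC25A32, the mitochondrial folate carrier gene, which shares 80.8% of its merged exon bases with other genes.

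Of 13 tested genes of de novo purine synthesis, which takes formyl groups from folate, 2 fell and 0 rose, with a median log2 fold change of -0.15. DESeq2 called 0 higher and 3 lower, and limma-voom called 0 higher and 2 lower. At an unadjusted edgeR p under 0.05 there were 1 higher and 5 lower. PAICS, which carries 2 of the middle steps, stood at 151, 131 and 126 CPM in leptin replicates 1, 2 and 3, against 218, 186 and 216 CPM in control replicates 1, 2 and 3 (log2 fold change -0.60 ± 0.12 (SE), edgeR adjusted p = 0.0131). ADSS2, of AMP synthesis, averaged 32.7 ± 1.51 CPM with leptin and 46.0 ± 1.89 CPM in controls (SD, n = 3 each, edgeR adjusted p = 0.0187), and did not pass with the GC trend removed (adjusted p = 0.0712). PRPS1 and PPAT, of the first steps, had log2 fold changes of -0.49 ± 0.14 and -0.44 ± 0.14 (SE) and did not pass (edgeR adjusted p = 0.0536 and 0.0691).

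Of 10 tested genes of mitochondrial serine and glycine handling, 2 rose and 0 fell (median log2 fold change -0.15), and DESeq2 called 3 higher and 0 lower while limma-voom called 1 higher and 0 lower. At an unadjusted edgeR p under 0.05 there were 3 higher and 3 lower. SLC25A38, a mitochondrial glycine carrier, averaged 52.1 ± 5.01 CPM with leptin and 36.9 ± 1.43 CPM in controls (SD, n = 3 each, edgeR adjusted p = 0.0225). GCAT, of mitochondrial glycine handling, stood at 34.3, 62.2 and 57.6 CPM in leptin replicates 1, 2 and 3, against 29.3, 31.6 and 31.1 CPM in control replicates 1, 2 and 3 (edgeR adjusted p = 0.0335, and 0.130 with the GC trend removed). The serine carrier family gene SFXN3 (log2 fold change 0.36 ± 0.11, edgeR adjusted p = 0.0539) and the glycine cleavage subunit gene DLD (-0.30 ± 0.11, adjusted p = 0.0904) did not pass.

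Of 6 tested genes of serine racemisation, breakdown and uptake, 3 rose and 0 fell, with a median log2 fold change of 0.33; none was called lower by DESeq2 or limma-voom or had a negative fold change with an unadjusted edgeR p under 0.05. SLC1A5, a sodium-dependent carrier of glutamine, serine and other neutral amino acids, stood at 432, 708 and 597 CPM in leptin replicates 1, 2 and 3, against 326, 360 and 345 CPM in control replicates 1, 2 and 3 (log2 fold change 0.75 ± 0.16 (SE), edgeR adjusted p = 0.0194, and 0.0717 with the GC trend removed). SLC1A4, a carrier of serine and alanine, stood at 84.5, 134 and 108 CPM in leptin replicates 1, 2 and 3, against 74.3, 77.2 and 71.8 CPM in control replicates 1, 2 and 3 (log2 fold change 0.55 ± 0.15 (SE), edgeR adjusted p = 0.0441). For both carriers leptin replicate 1 lay above the controls and below the other leptin libraries, as for SHMT2. SDSL, a homologue of serine dehydratase, averaged 25.7 ± 8.53 CPM with leptin and 14.8 ± 0.843 CPM in controls (SD, n = 3 each, edgeR adjusted p = 0.0386, and 0.128 with the GC trend removed), and SLC38A2 did not pass (log2 fold change -0.12 ± 0.11 (SE), edgeR adjusted p = 0.505).

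Of 10 tested regulators of serine synthesis genes, 4 rose and 0 fell (median log2 fold change 0.36), with no lower call by DESeq2 or limma-voom and 1 gene lower at an unadjusted edgeR p under 0.05. ATF4 stood at 606, 754 and 860 CPM in leptin replicates 1, 2 and 3, against 440, 494 and 459 CPM in control replicates 1, 2 and 3 (log2 fold change 0.67 ± 0.14 (SE), edgeR adjusted p = 0.0166). TRIB3, a pseudokinase gene that ATF4 induces, stood at 445, 1163 and 1182 CPM in leptin replicates 1, 2 and 3, against 314, 383 and 305 CPM in control replicates 1, 2 and 3 (log2 fold change 1.48 ± 0.33 (SE), edgeR adjusted p = 0.0306, and 0.0562 with the GC trend removed). In these genes, too, leptin replicate 1 was above the controls and lowest among the leptin libraries. DDIT3, of the stress factor CHOP, averaged 72.2 ± 34.4 CPM with leptin and 22.2 ± 3.40 CPM in controls (SD, n = 3 each, edgeR adjusted p = 0.0252), and CEBPB, of a C/EBP factor, averaged 309 CPM with leptin and 188 CPM in controls (edgeR adjusted p = 0.0411, and 0.267 with the GC trend removed). The part of ATF4 in the levels of the 10 enzymes was not tested.

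The steps on either side of the pathway were not called. Of 9 tested methionine cycle genes 0 passed edgeR, DESeq2 or limma-voom, and 0 had an unadjusted edgeR p under 0.05. MAT2A, the S-adenosylmethionine synthetase, averaged 156 ± 28.7 CPM with leptin and 190 ± 2.29 CPM in controls (SD, n = 3 each, edgeR adjusted p = 0.200), and MTR, the methionine synthase, 40.1 ± 2.92 CPM with leptin and 46.5 ± 1.08 CPM in controls (edgeR adjusted p = 0.222). AHCYL2 and NNMT had log2 fold changes of 0.31 ± 0.15 and 0.27 ± 0.15 (SE, edgeR adjusted p = 0.195 and 0.265). Of 8 tested glycolytic genes around 3-phosphoglycerate, 0 passed edgeR or limma-voom, 1 was called lower by DESeq2 and 2 were lower at an unadjusted edgeR p under 0.05. PGK1, which makes 3-phosphoglycerate, averaged 347 ± 99.4 CPM with leptin and 476 ± 21.9 CPM in controls (edgeR adjusted p = 0.119), and PGAM1, which takes it on through glycolysis, 173 ± 32.5 CPM with leptin and 231 ± 10.9 CPM in controls (edgeR adjusted p = 0.0732). BPGM and ENO1 had log2 fold changes of -0.25 ± 0.17 and -0.15 ± 0.14 (SE, edgeR adjusted p = 0.381 and 0.523).

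**Figure D4:**
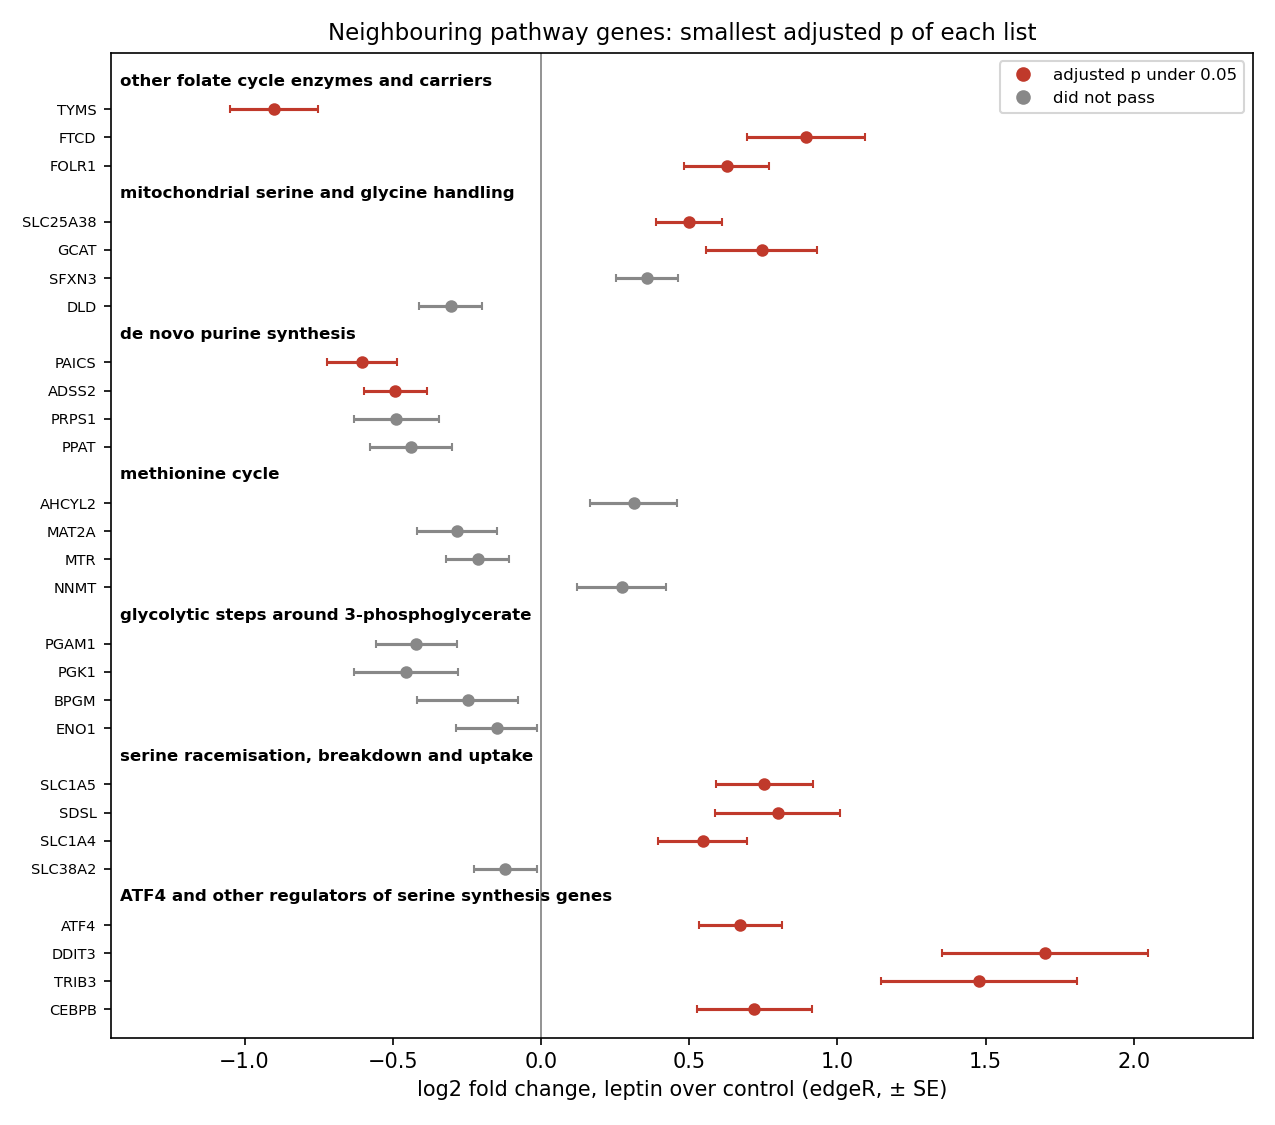
Log2 fold change (leptin over control, edgeR, points with bars of ± SE) of the genes with the smallest adjusted p in each of 7 lists of neighbouring pathway genes, up to 4 a list, with red for an adjusted p under 0.05. TYMS, PAICS and ADSS2 lie below 0, at -0.90 to -0.49, and the 11 genes that rose lie at 0.50 to 1.70.

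The genes whose log2 CPM followed PHGDH most closely over the 6 libraries, among 9433 protein-coding genes with a mean of at least 10 CPM, were KLF4, LAMP2, RND3 and GFER (Pearson's r 0.9974 to 0.9985). For MTHFD2 they were TNIP2, SLC30A1, MOCOS and THAP4 (0.9968 to 0.9995). At a looser cutoff, 353 of the 9433 genes had an r over 0.95 with PHGDH and 434 with MTHFD2. With only 6 libraries, and all points sharing the same libraries and scaling, no link between genes is read from these values.

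Of 14 annotated pseudogenes of these enzymes, 4 had any count, with at most 7 in a library, so reads assigned to such copies were few, although reads that map to several places were not counted at all. PHGDH, PSAT1, PSPH and MTHFD1L share no exon bases with another annotated gene, and for SHMT1, SHMT2, MTHFD2, MTHFD2L and ALDH1L2 the shared part was between 1.77% and 14.1% of the merged exons. Among the other genes that passed, DDIT3 and SLC1A5 shared 39.6% and 23.8%. No strand option was used in counting, so antisense reads within an enzyme's own exons are part of its count.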

How the data were processed

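Paired-end libraries (3 leptin, 3 control) were made from OVCAR8 total RNA with a kit that keeps strand, per the labels' protocols. The deposited values are raw counts of read pairs per gene. Per the file headers, the authors counted exons with featureCounts 2.0.1 on GENCODE release 44 and set no option for strand, for multi-mapping or for pairs that hit more than 1 gene. A different featureCounts version, 1.5.0-p3, stands in the submitters' processing notes beside HISAT2 2.0.5, DESeq2 and hg38. All 62700 IDs carried a symbol.

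From these counts, edgeR 4.0.16 in R 4.3.3 fitted the 6 libraries (filterByExpr with a minimum count of 10 and total of 15, TMM scaling, robust two-sided quasi-likelihood test, Benjamini-Hochberg over 15685 genes, threshold 0.05). The SE is the fold change over the root of its F statistic. Other fits used DESeq2 1.42.0, limma-voom 3.58.1, further scalings and filters, an offset for each library's lowess trend over GC (span 0.3, GENCODE 29 transcripts), replicate blocks, or 1 library fewer. The code was tested on simulated data. No libraries of a group were alike within sampling noise (chi-square per gene of 5.25 to 45.6).

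The enzymes and gene lists were chosen with earlier results of these data known. Of each pathway list, the 4 tested genes with the smallest adjusted p were named. The values of 1 such gene are not reported here. Figures used matplotlib 3.10.9.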

Additional observations from a re-analysis of the deposited data

How the results depend on the processing

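With 1 library left out, the enzymes called ranged from 0 to 7 (higher 0 to 6, lower 0 to 1), reaching 7 without leptin replicate 1, 1 without leptin replicate 2 and 0 in the other 4 leave-outs. Over all genes the calls ranged from 115 to 4761 (higher 55 to 2583, lower 60 to 2178), against 1538, 896 and 642 with all libraries. The calls over all genes stood at 4761 without leptin replicate 1 and 788 without leptin replicate 2. The number of genes tested in each leave-out is not given here, so no share of tested genes stands beside the enzyme counts. Nothing particular to the enzymes is read from those counts. With no filter on low counts 2437 genes (1478 higher) and 4 enzymes (3 higher) passed, PHGDH and PSAT1 joining (edgeR adjusted p = 0.00127 and 0.0174). That fit tested every gene with a count, a larger set than the 15685 genes of the main fit. With the GC trend removed 874 genes (457 higher, 417 lower) and 1 enzyme, MTHFD1 (0 higher), passed, and with a replicate block as well 920 genes (480 higher) and 1 enzyme (0 higher). At an adjusted p under 0.01, 274 genes (148 higher, 126 lower) and 0 enzymes (0 higher, 0 lower) passed. DESeq2, limma-voom and the other scalings each called the same 2 enzymes. Of 60 leave-out fold changes of single enzymes, 5 changed sign: SHMT1 ranged from -0.23 to 0.13 and was positive without control replicates 2 or 3 or leptin replicates 2 or 3, and MTHFD1L ranged from -0.079 to 0.40, negative without leptin replicate 2. None of the 100 fold changes under the other alternatives changed sign.

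Same-numbered libraries of the groups did not deviate together (correlations of -0.05, 0.01 and -0.11). No sign of pairing was seen, but deviations within groups of 3 libraries cannot exclude it. With the replicate block 1303 genes passed (768 higher, 535 lower) and SHMT2 and MTHFD1 kept their calls (edgeR adjusted p = 0.0497 and 0.0278). Over the leave-outs the leptin over control ratio of sums ranged from 1.20 to 1.47 for serine synthesis, 0.776 to 0.954 for the cytosolic and 1.23 to 1.47 for the mitochondrial arm. The leptin minus control difference in log2 ratio ranged from 0.37 to 0.92 for the mitochondrial over the cytosolic arm (0.64 on CPM sums), from 0.34 to 0.90 for SHMT2 over SHMT1 and from 0.63 to 1.06 for MTHFD2 over MTHFD1. Depth limits ALDH1L2 most.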
